A study of Caenorhabditis elegans with 10 samples.

Results

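The fat-mobilising lipases examined here were the 8 *lipl* genes (*lipl-1* to *lipl-8*), *atgl-1*, and *hosl-1*. They were taken by gene name, with all their transcripts. All 10 genes were found among the 19985 genes of the expression values, on 15 transcripts. The RNA came from whole wild-type (N2) animals grown at 20°C to the 1-day-old adult stage, with no other genotype or agent. The 5 conditions, each with 2 samples, were 20°C, a short step at 10°C, and 4°C after that step for 1, 3, or 5 days. The protocol and the paper give 2 hr at 10°C and the treatment labels give 3 hr, and for the day 5 samples the treatment labels give 3 days at 4°C, although their titles give 5 days. The values hold 1 column per condition, taken here to pool the 2 samples, so the spread between replicates could not be measured and no test was run.

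Animals store fat as triglycerides in lipid droplets, and in *C. elegans* most of it lies in the intestine. Cytosolic lipases act on the surface of the droplet. ATGL-1, the ortholog of mammalian adipose triglyceride lipase, takes the first fatty acid off a triglyceride, and hormone-sensitive lipase, of which HOSL-1 is the ortholog, continues with the diglyceride in mammals. The *lipl* genes encode relatives of mammalian lysosomal acid lipase, which act on fat delivered to the lysosome. In well-fed worms the factor MXL-3 holds some of these genes down, and in fasting worms HLH-30, the ortholog of mammalian TFEB, induces them.

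The lipase mRNAs differed in their course through the cold. The mRNAs of *atgl-1* and *hosl-1* stayed within 1.19-fold and 1.21-fold over the 5 conditions. By contrast, the day 5 level of *lipl-1* was 13.2-fold below that at 20°C (95% counting limits 6.50 to 31.4), *lipl-2* was 10.6-fold lower (5.89 to 21.0), and *lipl-5* was 3.04-fold lower (2.02 to 4.70). No lipase gene was 2-fold higher in any of the comparisons made, in which only 0.152% to 7.46% of the 10509 genes compared were higher. All the *lipl* mRNAs except *lipl-7* were scarce before cooling, with at most 1.41 FPKM (fragments per kilobase of transcript relative to all reads on transcripts). Both *lipl-1* and *lipl-2* reached the 1 FPKM needed for a call at 20°C only, so a fall from it is partly built in. Of the 853 genes compared that had a mean under 1 FPKM, 50.8% were at least 2-fold lower at day 5 than at 20°C.

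Most of the family shares a chromosome. In WBcel235, 7 of the 8 *lipl* genes lie on chromosome V, in the order *lipl-5* (385746 to 387740), *lipl-3* (521595 to 524218), *lipl-4* (6550171 to 6552186), *lipl-6* (6931475 to 6934312), *lipl-2* (9791567 to 9793241), *lipl-1* (12919986 to 12921692), and *lipl-8* (14745684 to 14748708). They do not form a cluster, since the closest pair, *lipl-5* and *lipl-3*, is 134 kb apart. The exception is *lipl-7*, on chromosome IV (10239278 to 10241823). The cytosolic lipase genes lie elsewhere, *atgl-1* on chromosome III (6415772 to 6419459) and *hosl-1* on chromosome X (4637121 to 4643695). The longest coding sequences of *lipl-1* to *lipl-5*, *lipl-7*, and *lipl-8* have between 401 and 411 codons, and that of *lipl-6* is longer, with 591. For *atgl-1* it has 751 codons and for *hosl-1* 943. Exons of other annotated genes overlap 1.60% of the exonic bases of *lipl-3* (*srw-107*) and 12.2% of those of the longer *lipl-4* transcript. The other 8 genes have no such overlap.

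Scaled by transcript length and the column total, every value was a whole number of reads. Summed over all transcripts, these counts came to between 70741449 and 85103831 per condition, with a read shared by transcripts counted for each. Each FPKM value is followed by 95% Wilson limits of its reads, for counting error only. Where transcripts of a gene overlap, they share reads, and the transcript highest in mean FPKM stands for the gene. Changes were computed as the log2 ratio of FPKM + 0.1, which understates those of scarce mRNAs, and a change was called at 2-fold. Calls were made for the 10509 genes with at least 1 FPKM in at least 1 condition, which include 6 of the 10 lipase genes (*atgl-1*, *hosl-1*, *lipl-7*, *lipl-5*, *lipl-2*, and *lipl-1*). For *lipl-1* and *lipl-2* this level was reached at 20°C only, so both entered through the condition in which they were highest. Fold differences of FPKM are given with exact limits conditional on the summed reads of the pair.

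The mRNA of *atgl-1* was the most abundant of the 10 in every condition. It had 20.8 FPKM at 20°C (limits 20.2 to 21.4), 23.3 at 10°C (22.7 to 23.9), 19.6 at day 1 (18.99 to 20.2), and 22.6 at both day 3 and day 5 (21.9 to 23.3 for day 5). Its lowest value was at 4°C day 1 and its highest at 10°C, and these differ beyond counting error. At day 5 the ratio to 20°C was 1.09 (1.04 to 1.14), a log2 ratio of 0.12. Between day 5 and day 3 no difference was detectable, with a ratio of 1.00 (0.958 to 1.04). The annotated *atgl-1* transcripts (C05D11.7a.1 and C05D11.7b.1) shared nearly all their reads, 4268 and 4273 at 20°C, and their log2 ratios agree to 2 decimals.

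The mRNA of *hosl-1* had 6.30 FPKM at 20°C (5.98 to 6.64), 5.42 at 10°C (5.13 to 5.73), 5.23 at day 1 (4.94 to 5.53), 5.27 at day 3 (4.97 to 5.58), and 5.44 (5.12 to 5.78) at day 5. The 20°C value stood above the other 4, whose limits overlap. Its log2 ratio was -0.21 at 10°C against 20°C, and between -0.05 and 0.05 in each later step. The longer transcript (C46C11.1a.1) gave nearly the same course, with 4.42 to 4.60 FPKM in the cold, against 5.33 at 20°C.

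**Figure D1:**
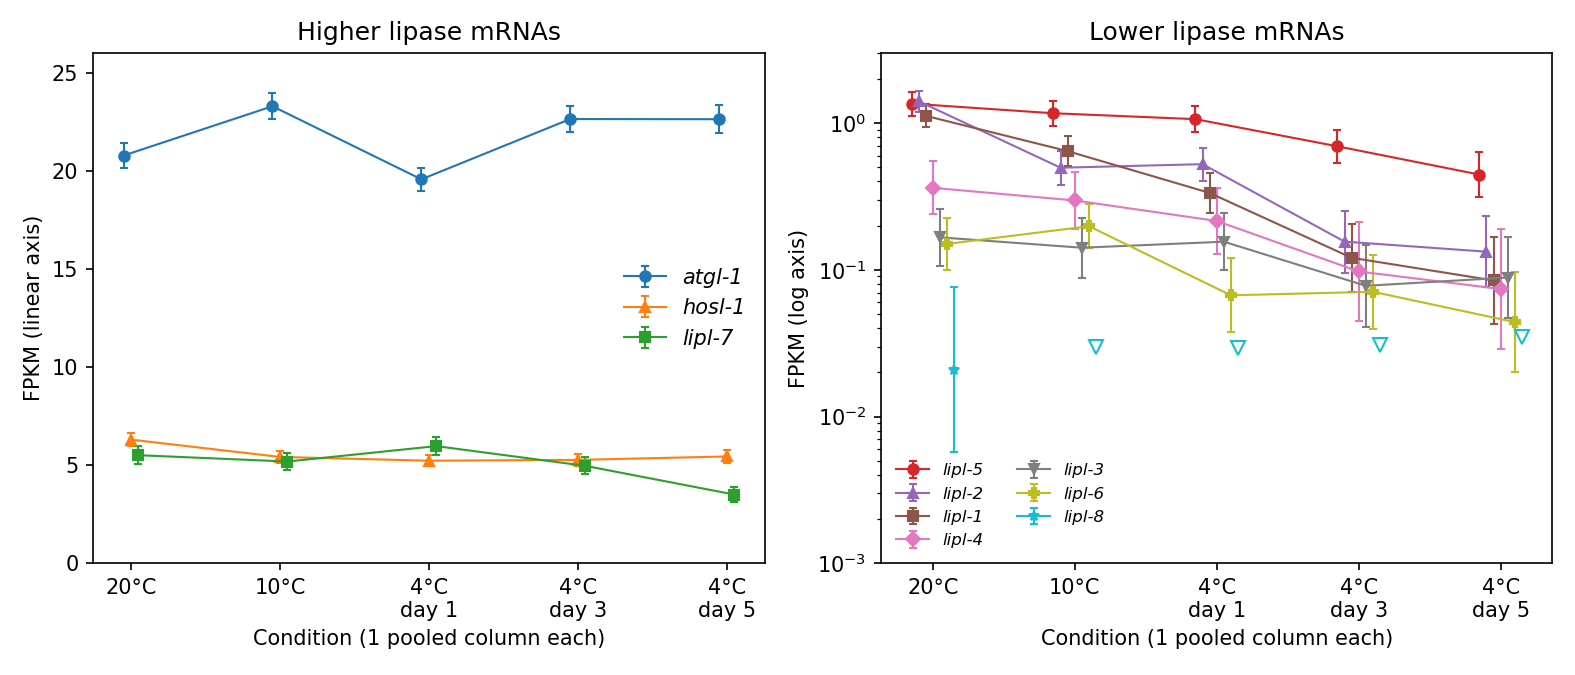
FPKM of the 10 lipase genes in the 5 conditions, on a linear axis for the 3 more abundant mRNAs (left) and on a log axis for the other 7 (right). Points are the pooled values, bars are 95% Wilson limits of the reads, and open triangles mark conditions with 0 reads, drawn at the level of 3 reads. The line of *atgl-1* stays near 20 FPKM, while *lipl-1* and *lipl-2* have 0.0846 and 0.133 FPKM at day 5, against 1.12 and 1.41 at 20°C.

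Among the lysosomal lipases, *lipl-7* was set apart by its level. It had 5.51 FPKM at 20°C (5.07 to 5.98), 5.18 at 10°C (4.77 to 5.63), 5.97 at day 1 (5.53 to 6.44), 4.97 at day 3 (4.56 to 5.41), and, lowest, 3.50 at day 5 (3.14 to 3.91). This last value lay below the other 4. It was 1.57-fold lower than at 20°C (1.37 to 1.81), a log2 ratio of -0.64, and did not reach the 2-fold threshold.

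The mRNA of *lipl-1*, a fasting-induced lipase, had 1.12 FPKM at 20°C (0.936 to 1.34), 0.643 at 10°C (0.511 to 0.810), 0.334 at day 1 (0.243 to 0.458), 0.121 at day 3 (0.0706 to 0.207), and finally 0.0846 at day 5 (0.0429 to 0.167). From 10°C on, the reads behind them numbered 72, 38, 13, and 8. Each was below the one before it, and the limits of neighbouring conditions overlap only between day 3 and day 5. No single step was called at 2-fold on the log2 scale, with ratios of -0.71, -0.78, -0.98, and -0.26 in turn. Without the pseudocount, the day 3 level was 2.77-fold below that of day 1 (1.44 to 5.66).

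The mRNA of *lipl-2* had 1.41 FPKM at 20°C (1.20 to 1.66), 0.496 at 10°C (0.379 to 0.648), 0.524 at day 1 (0.405 to 0.679), 0.156 at day 3 (0.0958 to 0.253), and 0.133 (0.0760 to 0.232) at day 5. Its values came in 3 levels, the highest at 20°C, a middle one at 10°C and day 1, and the lowest at day 3 and day 5, with limits that do not overlap between levels. After the short step at 10°C it was 2.84-fold lower than at 20°C (2.06 to 3.97), a log2 ratio of -1.34. It passed the filter only at 20°C, the level it is set against here. From day 1 to day 3 the log2 ratio was -1.29, with 16 reads at day 3 and 57 at day 1.

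The mRNA of *lipl-5*, which also encodes a lipase induced by fasting, had 1.35 FPKM at 20°C (1.12 to 1.64), 1.17 at 10°C (0.955 to 1.423), 1.06 at day 1 (0.864 to 1.31), 0.694 at day 3 (0.533 to 0.903), and 0.445 (0.314 to 0.632) at day 5. The limits of the first 3 conditions overlap, and those of day 3 and day 5 lie below the limits of 20°C. All 3 transcripts of the gene declined alike, with log2 ratios at day 5 against 20°C of -1.42 (ZK6.7d.1), -1.39 (ZK6.7c.1), and -1.31 (ZK6.7a.1). They share nearly all their reads, 106 or 107 at 20°C, so they are not independent.

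The remaining 4 *lipl* genes stayed under 1 FPKM in every condition and were not called. The gene *lipl-4*, known for extending lifespan when overexpressed in the worm, had 0.362 FPKM at 20°C, 0.297 at 10°C, 0.215 on day 1, 0.0974 on day 3, and 0.0739 on day 5. It was lowest in the last condition, with 4 reads, against 22 reads at 20°C. The day 5 level was 4.89-fold below that at 20°C, with wide limits of 1.66 to 19.5. The longer *lipl-4* transcript, with 5 reads at day 5 and 30 at 20°C, was 5.34-fold lower (2.05 to 17.6).

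For *lipl-3*, a target of HLH-30 in fasting worms, between 9 and 19 reads were counted per condition, and the ratio of day 5 to 20°C was 0.532 (0.212 to 1.23). This difference was not detectable at this depth. The gene *lipl-6* had 23 reads at 20°C, 32 at 10°C, 11 at day 1 and at day 3, and 6 at day 5. Its day 1 level was 2.96-fold lower than at 10°C (1.45 to 6.50), and its day 5 level was 3.41-fold lower than at 20°C (1.35 to 10.2). The gene *lipl-8* had 2 reads at 20°C and 0 in the other 4 conditions, where a count of 0 was taken to allow up to 3 reads, equal to 0.0292 to 0.0351 FPKM. No fold is given for it.

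**Figure D2:**
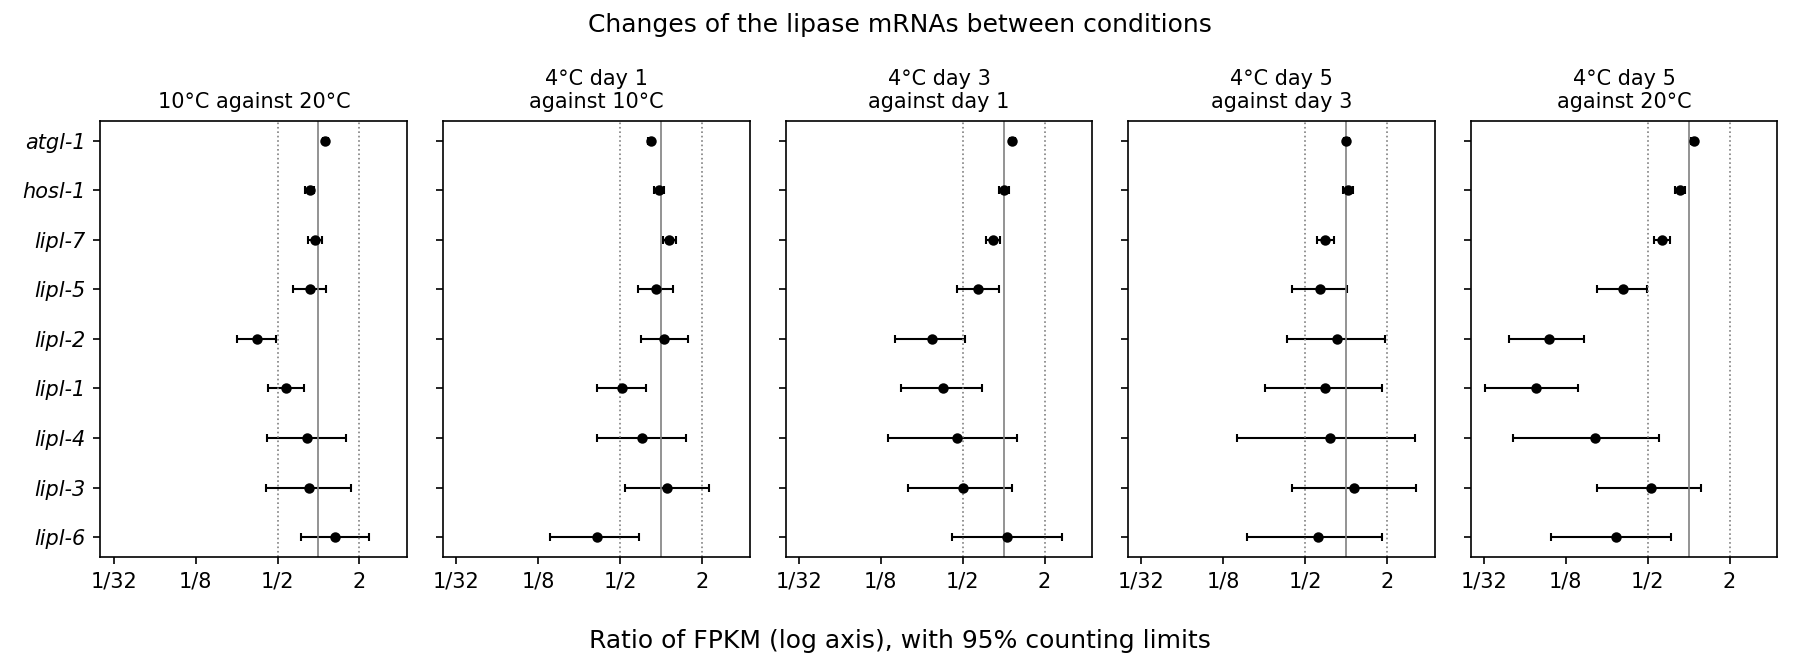
Ratio of FPKM on a log axis for 9 lipase genes in 5 comparisons, the first-named condition over the second. Bars are 95% exact counting limits, the solid line marks no difference and the dotted lines 2-fold. The ratios of *atgl-1* and *hosl-1* lie close to 1 throughout, and at day 5 against 20°C the points of *lipl-1*, *lipl-2*, *lipl-4*, *lipl-5*, and *lipl-6* lie below the lower dotted line. In single steps, *lipl-2* does so at 10°C against 20°C, *lipl-6* at day 1 against 10°C, and *lipl-1*, *lipl-2*, and *lipl-4* at day 3 against day 1. The gene *lipl-8* is left out because it had at most 2 reads.

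Counted by step among the 6 lipase genes past the filter, 1 was at least 2-fold lower at 10°C than at 20°C (*lipl-2*), against 0.933% of all genes past the filter and 5.39% of those with a mean under 1 FPKM, and none was higher (1.27% of all genes). Between 4°C day 1 and 10°C, where 5.49% of all genes were higher and 5.42% lower (23.7% of those under 1 FPKM), none of the 6 was called in either direction. At day 3 against day 1, *lipl-2* was again the 1 gene called lower (4.65% of all genes and 9.14% of those under 1 FPKM), and none was higher (1.57%). At day 5 against day 3 none was called (4.98% of all genes and 9.96% of those under 1 FPKM lower, 0.152% of all genes higher). No p-values can be given for these counts, since there is 1 column per condition.

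Over the whole course, 3 of the 6 lipase genes past the filter were at least 2-fold lower at day 5 than at 20°C, *lipl-1* with a log2 ratio of -2.72, *lipl-2* with -2.70, and *lipl-5* with -1.42. None was higher. Of the 4 genes under the filter, *lipl-4* also had a ratio past 2-fold (-1.41), and *lipl-6* (-0.80) was past it only without the pseudocount. Of all genes past the filter, 16.7% were lower and 5.4% higher, and the median log2 ratio was -0.11. Relative to that median, the log2 ratio was 0.23 for *atgl-1* and -0.10 for *hosl-1*. Of the 853 genes past the filter with a mean under 1 FPKM, to which *lipl-1*, *lipl-2*, and *lipl-5* belong, 50.8% were at least 2-fold lower, with a median log2 ratio of -1.05. Genes of this group pass the filter only through a condition in which they are high. Since the treatment labels of day 5 name another day, the count was repeated with day 3, a comparison added after the values were seen. At day 3 against 20°C, 2 of the 6 lipase genes past the filter were lower, *lipl-1* (-2.47) and *lipl-2* (-2.56), against 12.3% of all genes and 40.9% of those under 1 FPKM (7.46% of all genes higher), and *lipl-5* had a log2 ratio of -0.87. Under the filter, *lipl-4* had -1.23. At day 1 against 20°C the same 2 genes were lower (-1.49 and -1.27), against 7.32% of all genes and 32.7% of those under 1 FPKM (6.78% of all genes higher). These comparisons share the 20°C column.

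With the decline of the *lipl* mRNAs, the make-up of the group shifted to *atgl-1*. The summed FPKM of the 7 *lipl* genes other than *lipl-7* was 4.58 at 20°C, 2.94 at 10°C, 2.36 on day 1, 1.216 on day 3, and 0.869 on day 5. Their share of the summed FPKM of all 10 genes was 2.68% at day 5, against 12.3% at 20°C. The share of *atgl-1* was 69.7% at day 5, against 55.9% at 20°C, and it was 63.2% at 10°C, 59.1% on day 1, and 66.4% on day 3. The sum over the 10 genes moved less, between 32.4 and 37.2 FPKM.

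**Figure D3:**
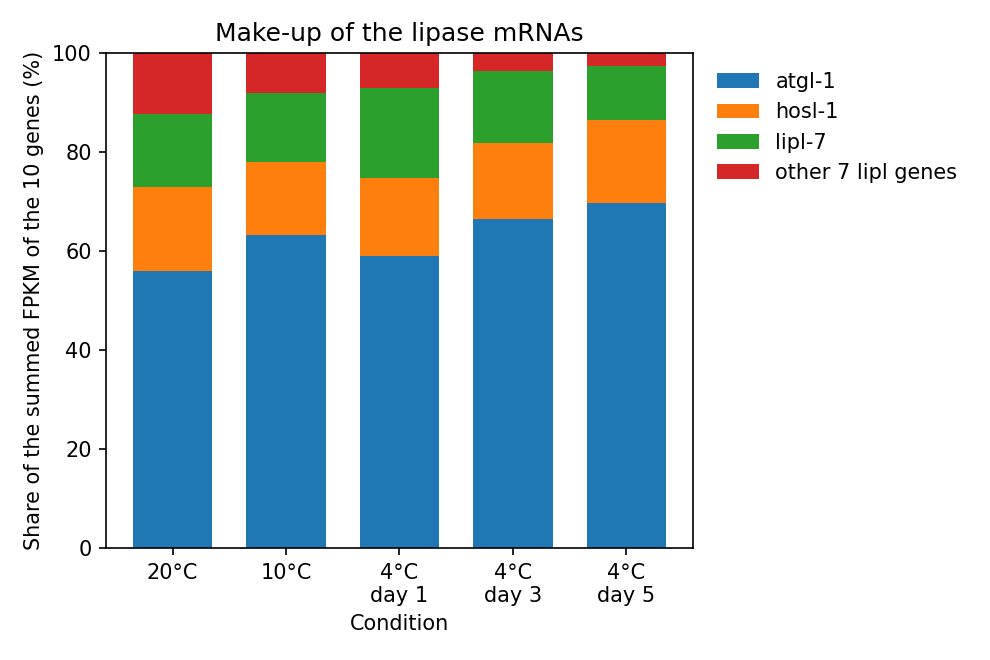
Share of each lipase gene in the summed FPKM of the 10 genes, in percent, for the 5 conditions. Bars start at 0 and add up to 100%. The top segment, the 7 *lipl* genes other than *lipl-7*, narrows to 2.68% at day 5, against 12.3% at 20°C.

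The order of the genes by FPKM kept *atgl-1* first. The mRNAs of *hosl-1* and *lipl-7* followed, and their limits overlap at 20°C, 10°C, and day 3. At day 1 *lipl-7* was above *hosl-1* (5.97 against 5.23), with limits that only just fail to overlap, and at day 5 it was below (3.50 against 5.44). Next in the order, *lipl-2*, *lipl-5*, and *lipl-1* could not be told apart at 20°C. From 10°C on *lipl-5* stood alone in that place, and its limits do not overlap those of the next gene. By day 5, *lipl-2*, *lipl-3*, *lipl-1*, *lipl-4*, and *lipl-6*, with 0.133 to 0.0440 FPKM, could not be told apart from their neighbours in the order.

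The genes whose course over the 5 conditions was nearest to that of *lipl-1* were Y65A5A.1, *btb-17*, and *slcr-46.1*, at Euclidean distances of 0.247, 0.250, and 0.250 between centred log2 values. For *lipl-2* they were *fbxb-37* (0.494), F58F9.4 (0.548), and *arrd-1* (0.609). The distance between *lipl-1* and *lipl-2* was 0.636, which made *lipl-1* number 6 among the genes nearest to *lipl-2* and *lipl-2* number 138 among those nearest to *lipl-1*. With 5 values per gene and few reads, these distances describe the columns only.

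The partners of ATGL-1 on the droplet had courses of their own. The mRNA of *lid-1*, which encodes a coactivator of ATGL-1, had 33.4 FPKM at 20°C, 34.3 at 10°C, 28.3 on day 1, 26.4 on day 3, and 27.2 on day 5. Its relatives *abhd-5.1* and *abhd-5.2* had log2 ratios of 0.54 and -0.08 at day 5 against 20°C. The mRNA of *plin-1*, the perilipin of the worm, which coats lipid droplets, had 85.6 FPKM at 20°C and 101 at 10°C. It was highest at day 1, with 158 FPKM, and then had 125 at day 3 and 114 at day 5. Of the 5 genes in this list, 1 was called at day 5 against 20°C, namely *dhs-3*, a lipid droplet protein of the intestine, which was lower (8.47 against 38.0 FPKM, log2 ratio -2.15). Of all genes, 16.7% were lower, and the median of the list was -0.08, beside -0.11 for all genes.

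Of 16 regulators of fat mobilisation, 3 were at least 2-fold lower at day 5 than at 20°C and none was higher, a share near the 16.7% of all genes, with a median log2 ratio of -0.19. The mRNA of *mxl-3*, the repressor of lysosomal lipase genes in fed worms, had 7.76 FPKM at 20°C, 2.87 at 10°C, 1.83 on day 1, 1.48 on day 3, and 0.477 on day 5. It was the 1 regulator called lower at 10°C against 20°C (-1.41), the step at which *lipl-2* was called, beside 0.933% of all genes. It was called lower again at day 5 against day 3 (-1.45). It was lower in every 4°C condition than at 20°C, as were the regulators *nhr-80*, *kin-2*, *mml-1*, *mxl-2*, and *nhr-13*. Among the lipase genes so were *hosl-1* and all the *lipl* genes except *lipl-7*, not all of them beyond counting error. The median log2 ratio of all genes past the filter was below 0 as well, with -0.11, -0.14, and -0.11 at day 1, day 3, and day 5. A link between *mxl-3* and the *lipl* genes was not tested. The mRNA of *hlh-30*, the activator of these genes in fasting, had 8.42, 10.2, 13.4, 15.5, and 9.37 FPKM in the same order of conditions, highest at day 3, and was not called in any step. The others called lower at day 5 against 20°C were *nhr-80* (-1.44) and *sbp-1*, the SREBP of the worm (-1.17). At day 5 against day 3, 3 of the 16 were called lower, beside 4.98% of all genes. Besides *mxl-3* these were *kin-1*, the catalytic subunit of protein kinase A (-1.06), and *sbp-1* (-1.14). The mRNAs of *daf-16* and *nhr-49*, factors of the fasting response, had log2 ratios of 0.19 and 0.16 at day 5 against 20°C.

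Of 4 genes for making triglycerides, 2 were at least 2-fold lower at day 5 than at 20°C, beside 16.7% of all genes. The mRNA of *dgat-2*, a diacylglycerol acyltransferase, had 0.277 FPKM at day 5, against 3.56 at 20°C (log2 ratio -3.28), and that of *acs-22*, an acyl-CoA synthetase, had 3.79 against 13.2 FPKM (-1.77). For *dgat-2* the change was called at day 3 against day 1 (-2.30) and again at day 5 against day 3 (-1.17). In these steps 4.65% and 4.98% of all genes were lower. The genes *mboa-2* and *lpin-1* had ratios of -0.39 and -0.24. Of 10 genes listed for the lysosome, 2 were lower at day 5 than at 20°C, a share near the 16.7% of all genes, and none was higher. These were the proton pump subunits *vha-5* (-2.32) and *vha-12* (-1.19). The median of the list was 0.00. Its other proton pump genes, *vha-8* (-0.81) and *vha-15* (-0.66), were also below 0, and the rest lay between 0.00 and 0.33. The lysosomal membrane protein gene *lmp-1* had 36.1 FPKM at day 5, against 32.3 at 20°C. The fasting-induced lipase genes *fil-1* and *fil-2* and the lysosomal lipid carrier *lbp-8* were all under 1 FPKM, and *lbp-8* had 3 reads at day 1, against 25 at 10°C and 25 at 20°C.

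**Figure D4:**
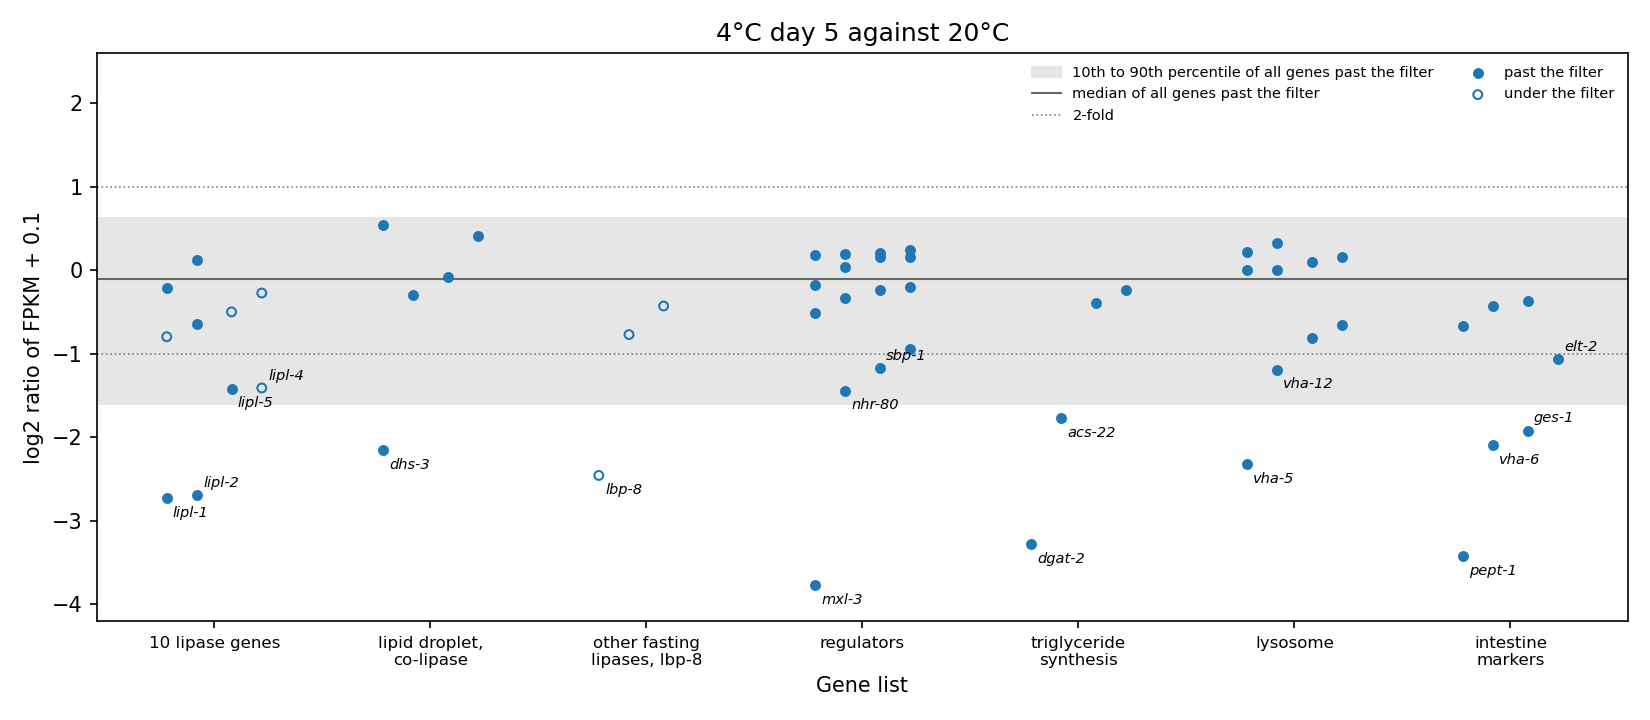
Log2 ratio of FPKM + 0.1 at 4°C day 5 against 20°C for the 10 lipase genes, 5 lists of related genes, and 7 intestinal markers. Each point is a gene, open where it stayed under 1 FPKM in every condition, and names are given past 2-fold. The grey band spans the 10th to 90th percentile of all 10509 genes past the filter (-1.60 to 0.63), and *lipl-1* and *lipl-2* lie below it, as do *dhs-3*, *lbp-8*, *mxl-3*, *dgat-2*, *acs-22*, *vha-5*, *pept-1*, *vha-6*, and *ges-1*.

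Markers of the intestine were lower at day 5 as well. The summed FPKM of 7 intestinal markers was 134 at 20°C, 144 at 10°C, 143 on day 1, 130 on day 3, and 72.7 on day 5, and none was at 0. Much of this sum was *act-5*, with 61.7, 71.8, 93.4, 87.9, and 47.7 FPKM in the same order, so the sum hides earlier falls of other markers. The mRNA of *pept-1* had 14.3 FPKM at 10°C and 3.51 on day 1. At day 5 against 20°C, 4 of the 7 were at least 2-fold lower, *pept-1* (-3.42), *vha-6* (-2.09), *ges-1* (-1.92), and *elt-2* (-1.06), and all 7 were below 0, while 16.7% of all genes were lower. At 10°C against 20°C 0 of the 7 were called, where only 0.933% of all genes were lower and 1.27% higher. At day 1 against 20°C 1 was lower (*pept-1*, -1.99), beside 7.32% of all genes. At day 3 against 20°C 3 were lower (*ges-1*, *pept-1*, and *vha-6*), beside 12.3% of all genes. The summed level of 4 muscle markers was 66.8 at day 5 and 129 at 20°C, and that of 4 germline markers was 352 and 378. For 4 neuronal markers it was 85.5 and 64.6, mostly *snb-1* (76.8 and 53.6), and 2 of these 4 had log2 ratios below 0. For 4 hypodermal markers it was 9.11 and 13.9, and for 4 sperm markers 19.4 and 18.5. In these lists *hlh-1* and *unc-54* of muscle and *glp-1* of the germline were called lower, beside 16.7% of all genes, and none was called higher. In RNA of whole animals, a smaller share of RNA from the intestine and less of an mRNA within it cannot be told apart. The part of the intestine in the decline of the *lipl* mRNAs was not tested.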

How the data were processed

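Total RNA of whole animals was measured in 10 samples, 2 for each of 5 conditions. RNA came from the lysates used for ribosome profiling. The authors ran the ORFik ribo-seq pipeline, with fastp (0.23.4), removal of contaminants such as rRNA, STAR (2.7.11b) on WBcel235, and DESeq2 (1.42.1), and deposited FPKM per transcript, 1 column per condition. The annotation release, use of strand, and pooling of replicates are not given in the sources used here. A further 1 column belongs to no sample and was not used.

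Reads were recovered from FPKM with exon lengths of Ensembl release 115. All values came out whole within 0.01 reads in each column. Summed over all transcripts, the counts were 79504178 (20°C), 83707785 (10°C), 85103831 (day 1), 80542224 (day 3), and 70741449 (day 5). A read shared by transcripts counts for each of them, so these sums exceed the number of distinct reads. The number of reads limits the precision of scarce mRNAs. Wilson and exact limits use a level of 95%, and a count of 0 was given a floor of 3 reads.

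The lipase genes and the related lists were chosen with earlier results of these data known. Genes named were all 10 lipase genes, list genes past 2-fold, some regulators and co-lipases fixed by name, and the 3 nearest genes of each lipase gene past the filter with a 4-fold range. The planned limma test was not run, since no column is a replicate, and protein and promoter sequences were not analysed here. Alternatives were pseudocounts of 1 and 0.01, no filter or 5 FPKM, centring, thresholds of 1.5-fold and 4-fold, and sums over transcripts. The procedure was tested on simulated data. Software was Python 3.11.15, pandas 2.3.3, numpy 2.4.6, matplotlib 3.10.9, and scipy 1.17.1.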

Additional observations from a re-analysis of the deposited data

How the results depend on the processing

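No paired analysis was possible because each condition has a single column and the columns carry no replicate numbers, and for the same reason no replicate could be left out. The counts of lipase genes at least 2-fold higher were 0 under every alternative, beside 0.152% to 7.46% of all genes past the filter as reported. With a pseudocount of 1, the number of genes lower was 0 at 10°C against 20°C, 0 at day 3 against day 1, and 1 (*lipl-2*) at day 5 against 20°C. With a pseudocount of 0.01, it was 2 (*lipl-1* and *lipl-2*) at day 3 against day 1. With the filter at 5 FPKM, which leaves *atgl-1*, *hosl-1*, and *lipl-7*, it was 0 in all 3 of these comparisons. At 1.5-fold, 2 genes were lower at 10°C against 20°C, 1 (*lipl-1*) at day 1 against 10°C, and 2 at day 3 against day 1. At 4-fold, 0 were lower at 10°C against 20°C and at day 3 against day 1. Without the filter, *lipl-4* joined at day 5 against 20°C. Centring the ratios and summing transcripts left each count within 1.5 times. Of 180 log2 ratios recomputed under other pseudocounts, centring, or sums, 1 took the other sign, that of *hosl-1* at day 1 against 10°C (-0.05 as reported), under centring. No called ratio did. Depth limits *lipl-3*, *lipl-4*, *lipl-6*, and *lipl-8*, which had at most 32 reads in any condition.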
